A study of Homo sapiens with 4 samples.

Results

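The comparison described here is the first day on VEGF and bFGF in a stepwise blood differentiation of human embryonic stem cells: the day 3 library set against the day 2 library. Of 18418 genes listed in either library, 15310 reached a level of 1 CPM on at least 1 of the days and were described. CPM is the expected count of a gene scaled to the total of its library. The cells were H1, an established human embryonic stem cell line, with the wild type genotype, and cells were profiled at days 0, 2, 3 and 4, with 1 library per day. The day 2 cells had received activin A (40 ng/ml) and BMP4 (50 ng/ml) in Custom mTeSR1. The day 3 cells had received the same and then 1 day of VEGF (40 ng/ml) and bFGF (50 ng/ml) in that medium. The day 4 cells had a second such day, and the day 0 cells were undifferentiated. The change of factors and the added day of culture coincide, so they cannot be told apart. The labels name no sort and a single cell line. At day 2 the streak markers EOMES and TBXT were at 367 and 35.8 CPM, from 0.595 and 0.198 CPM in the undifferentiated library.

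In this kind of protocol, activin A and BMP4 imitate signals of the primitive streak, the embryonic structure through which epiblast cells become mesoderm and endoderm. VEGF acts through receptor tyrosine kinases on mesodermal precursors of vessels and blood, and bFGF (FGF2) acts through FGF receptors and the ERK kinase cascade. Vessel and blood precursors share a group of transcription factors, among them ETV2, TAL1, LMO2, FLI1 and ERG, before endothelial and blood cells become distinct.

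The 2 libraries were close in depth, with totals of 5197380 and 5202870 expected counts, 17390 genes listed at day 2 and 17562 at day 3. A single read corresponded to 0.192 CPM in each, and the limit allowed by 3 reads was 0.577 CPM. With 1 library per day the spread between cultures is not known, and no test was made. Intervals printed with fold values are 95% intervals that cover counting error only. Genes were called by size, as a log2 ratio of CPM + 1 (day 3 over day 2) of at least 1 in either direction, termed 2-fold below, or at least 2, termed 4-fold. Fold values are plain ratios of CPM. In bulk RNA, fewer cells of a type and less RNA per cell cannot be told apart.

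The library at day 3 held more of the vessel and blood precursor genes and less of part of the NODAL pathway and primitive streak genes. At least 2-fold higher were 904 of 15310 genes (5.9%), and at least 2-fold lower were 506 (3.31%). At least 4-fold, 201 genes (1.31%) were higher and 62 (0.405%) lower. The median log2 ratio over all described genes was 0.02, with quartiles of -0.22 and 0.32. Of the 1410 genes called 2-fold, 1404 had a counting interval that left out a ratio of 1. Of the 10720 genes that reached 10 CPM on either day, 474 were higher and 249 lower by the same size.

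**Figure D1:**
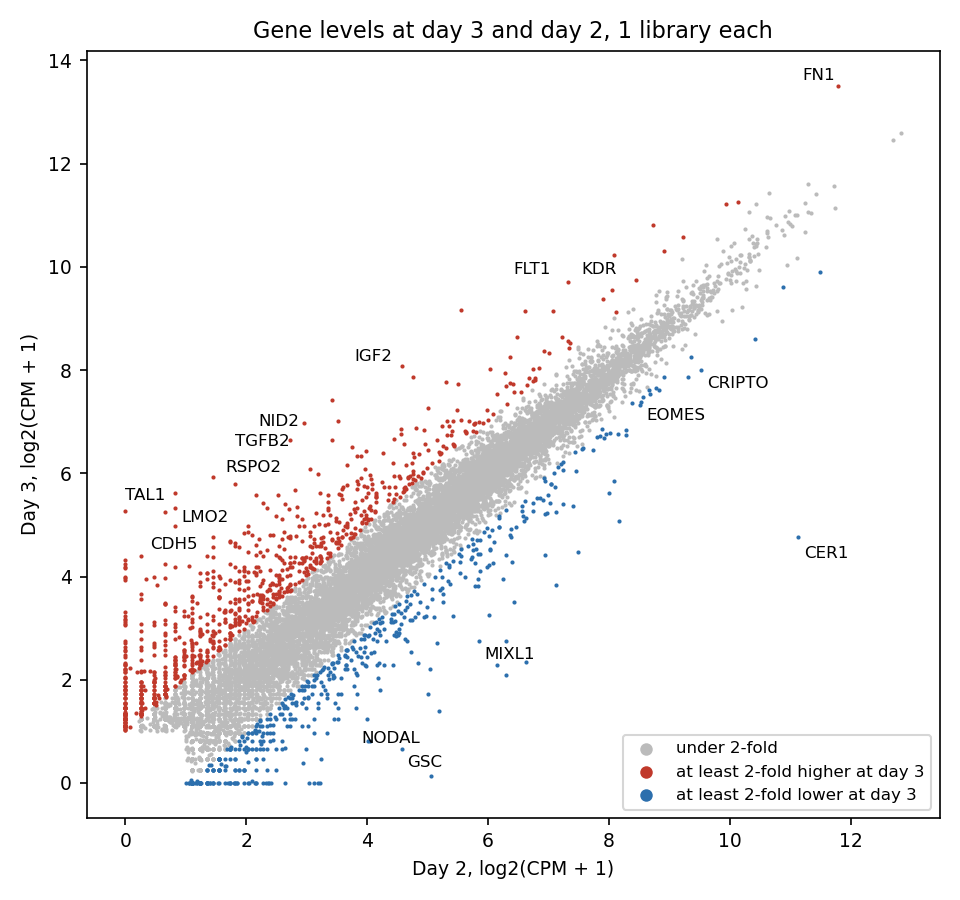
Each point is 1 of 15310 genes, with its level at day 2 on the x axis and at day 3 on the y axis, both as log2(CPM + 1), from 1 library each. Red marks the 904 genes higher by 2-fold or more, blue the 506 lower by that size; CER1 lies farthest below the diagonal and TAL1 sits at 0 on the x axis.

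Many transcription factors shared by vessel and blood precursors were higher at day 3, several of them from a level of almost no reads. Of 20 listed factors 19 passed the minimum, 10 were at least 2-fold higher, none at least 2-fold lower, and the median log2 ratio was 1.04 against 0.02 over all genes. Members that passed through the day 3 library alone had to differ, so these counts are a description. TAL1, a basic helix-loop-helix factor needed for all blood lineages, had no read at day 2 and 37.7 CPM at day 3. The TAL1 level at day 3 was 65.3 times a floor of 3 counts, and the 95% counting interval of its fold began at 52.6. LMO2, the LIM-domain protein that bridges TAL1 and GATA factors, had 0.77 CPM at day 2 and 30.4 CPM at day 3, or 39.5-fold higher (15.1 to 147). Both were at or near 0 in the undifferentiated library as well, with 0.198 CPM for TAL1 and 0.397 CPM for LMO2.

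Members of the ETS family in that group differed in both directions. ERG, an ETS factor of endothelial and stem cells, had 0.577 CPM (3 reads) at day 2 and 17.9 CPM at day 3, or 31-fold higher (10.3 to 153). FLI1, its close relative, had 4.76 and 46.8 CPM, 9.84-fold higher (6.45 to 15.4). ETV2, the ETS factor that opens the vessel and blood programme in mesoderm, had 1.35 CPM at day 2 and 13.8 CPM at day 3, or 10.3-fold higher (4.74 to 26.5). ETV2 was the one of these 3 that was lower again at day 4, at 6.74 CPM, where ERG stood at 53.5 CPM and FLI1 at 121 CPM. ETS1, the ETS factor with the most reads in the group at day 2, was at 167 and 96.5 CPM, a log2 ratio of -0.78 and so under 2-fold. SOX7, an endothelial SOX factor named after its values were seen, had 5.56 and 38.9 CPM, 6.99-fold higher (4.7 to 10.7).

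GATA2 and RUNX1 did not share that size of difference. GATA2, a zinc-finger factor of blood stem and progenitor cells, had 23.5 CPM at day 2 and 49.2 CPM at day 3, or 2.1-fold higher (1.68 to 2.62). RUNX1, the factor required for blood to emerge from endothelium, had 24.2 CPM at day 2 and 20.9 CPM at day 3, and its counting interval, 0.888 to 1.51-fold lower, held a ratio of 1. HHEX, a homeobox factor of endothelium and liver bud, had 2.69 and 7.69 CPM, 2.85-fold higher (1.52 to 5.68).

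Promoter sequence is shown for TAL1 and ERG, because both had almost no reads at day 2. Each is a 250-base window upstream of a start site in the RefSeq table (GRCh38.p14). Matched by symbol, 11 of the 20 listed factors had 23 windows in the table, and the other windows are not printed. Capitals mark matches, on either strand, to AGATAA (the GATA motif), CAGGAAG (an ETS motif), CAGATG (an E-box) and AGGTGTGA (a T-box site). The TAL1 window is chr1:47232336-47232585, minus strand, with the GATA motif beginning 35 bases before the start site, and the ERG window is chr21:38498505-38498754, minus strand, with all 4 motifs.
TAL1: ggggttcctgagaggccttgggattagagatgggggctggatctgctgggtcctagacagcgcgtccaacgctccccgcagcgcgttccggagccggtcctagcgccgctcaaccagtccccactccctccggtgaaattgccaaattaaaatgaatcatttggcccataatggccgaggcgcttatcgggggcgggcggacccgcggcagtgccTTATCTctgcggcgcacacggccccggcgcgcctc
ERG: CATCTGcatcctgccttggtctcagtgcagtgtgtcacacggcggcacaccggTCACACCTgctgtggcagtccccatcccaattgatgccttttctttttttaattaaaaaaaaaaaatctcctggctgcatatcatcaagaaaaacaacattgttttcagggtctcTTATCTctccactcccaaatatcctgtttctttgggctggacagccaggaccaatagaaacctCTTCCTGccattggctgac
Over all 35116 windows of the table, CAGGAAG was in 10.48%, AGATAA in 9.167%, CAGATG in 12.15% and AGGTGTGA in 0.786%. Among the 23 windows of the vessel and blood factors CAGGAAG was in 7, AGATAA in 3, and CAGATG and AGGTGTGA in 2 each, some of them overlapping windows of 1 gene. CCGGAAG, another ETS sequence, was in 8.517% of all windows and in none of the 23. A match says only that these letters are present.

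Genes of the endothelial surface, its junctions and its signalling were higher at day 3. Of 32 listed, 26 passed, 19 were at least 2-fold higher, none at least 2-fold lower, and the median log2 ratio was 1.57. Without the minimum, over members with a count in either library, the median was 1.49. Here too, members that passed through the day 3 library alone had to be higher, so these counts are a description. The listed CLDN5, ROBO4 and MMRN1 had no read in either library. CDH5 (VE-cadherin), the adhesion protein of endothelial junctions, had 1 read at day 2 (0.192 CPM) and 20 CPM at day 3, or 104-fold higher (18.2 to 4142). The width of that interval comes from the single read at day 2. PLVAP, the protein of endothelial pore diaphragms, likewise had 1 read (0.192 CPM) and then 11.7 CPM.

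Apelin and its receptor stood at different points on this day. APLN, the peptide ligand made by sprouting endothelium, had 0.577 CPM (3 reads) at day 2 and 37.1 CPM at day 3, or 64.3-fold higher (21.7 to 314). It was back at 5.83 CPM at day 4. APLNR, its receptor and a surface marker of early mesoderm, was already at 774 CPM at day 2 and had 1049 CPM at day 3, or 1.36-fold higher (1.3 to 1.41); it was named after its values were seen. The APLN window, chrX:129654957-129655206 on the minus strand, held CAGGAAG on the opposite strand, beginning 97 bases before the start site.
APLN: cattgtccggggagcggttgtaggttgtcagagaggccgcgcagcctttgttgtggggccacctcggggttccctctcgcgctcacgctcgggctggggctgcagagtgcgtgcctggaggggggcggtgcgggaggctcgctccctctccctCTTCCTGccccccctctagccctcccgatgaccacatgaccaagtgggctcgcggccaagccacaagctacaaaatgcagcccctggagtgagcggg
CAGGAAG was in 10 of 24 windows of 20 endothelial genes, beside the 10.48% over all windows given above. Among the matched genes EGFL7 counted more than once, and MMRN1 and ROBO4 had no read on either day. CCGGAAG, in 8.517% of all windows, was in none of the 24.

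CD34 and PECAM1, surface markers used to sort haemato-endothelial cells, differed less than CDH5. CD34 had 28.5 CPM at day 2 and 56.1 CPM at day 3, or 1.97-fold higher (1.61 to 2.42), just under the 2-fold rule on the log2 scale. PECAM1 (CD31) had 2.78 and 7.79 CPM, 2.8-fold higher (1.56 to 5.81). NOS3, the endothelial nitric oxide synthase, had 1.97 and 14.6 CPM, and TM4SF1, a membrane protein of endothelial filopodia, had no read and then 5.77 CPM. The angiopoietin receptor TEK (TIE2), named after its values were seen, was at 34.6 and 99 CPM, 2.86-fold higher (2.41 to 3.41).

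Receptors for the added VEGF were higher at day 3, whereas no ligand that passed the minimum reached 2-fold. Of 10 VEGF ligands and receptors listed, 8 passed the minimum and 3 were at least 2-fold higher: FLT1, KDR and NRP1. FLT1 (VEGFR1) had 159 CPM at day 2 and 836 CPM at day 3, or 5.26-fold higher (4.88 to 5.67). KDR (VEGFR2), the main signalling receptor, had 347 and 863 CPM, 2.49-fold higher (2.35 to 2.63). NRP1, a coreceptor, had 66.4 and 141 CPM, 2.12-fold higher (1.86 to 2.42). NRP2, the other neuropilin, was at 299 and 406 CPM, 1.36-fold higher (1.27 to 1.45). FLT4 (VEGFR3) had 3.85 and 6.09 CPM, with an interval of 0.887 to 2.95-fold.

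Per transcript length, the order of the receptors differed between the days. In deposited FPKM at day 2, KDR stood at 56.9, NRP2 at 53.3, FLT1 at 30.7, NRP1 at 11.2 and FLT4 at 0.84. At day 3 FLT1 stood first at 166, followed by KDR at 141, NRP2 at 72.6, NRP1 at 23.8 and FLT4 at 1.16. The ligands were close on both days: VEGFA had 38.1 and 35.6 CPM, VEGFB 14.6 and 17.9 CPM, and PGF 9.62 and 10.6 CPM, each with an interval that held a ratio of 1. VEGFC had 4 reads at day 2 and 1 at day 3, below the minimum.

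**Figure D2:**
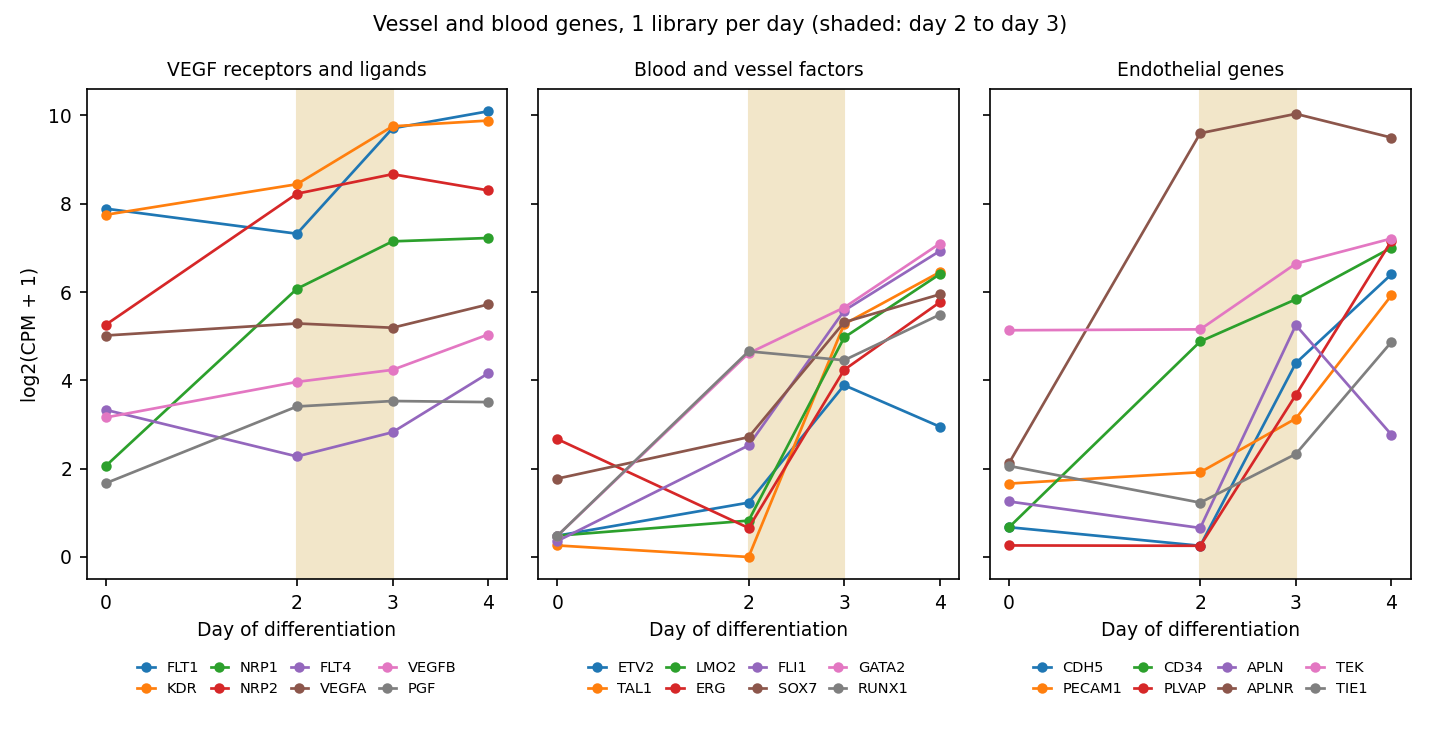
Levels of VEGF pathway genes, vessel and blood transcription factors and endothelial genes at days 0, 2, 3 and 4, as log2(CPM + 1) from 1 library per day, with the interval from day 2 to day 3 shaded. FLT1 was below KDR at day 2 and next to it at day 3 on this scale; TAL1 had no read at day 2, and ETV2 and APLN were lower at day 4 than at day 3.

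Genes of differentiated blood cells were not part of this pattern. Of 25 listed, 12 passed the minimum, with a median log2 ratio of -0.06. LAPTM5, a lysosomal protein of blood cells, was the one at least 2-fold higher, from 1.15 to 10.6 CPM. ALAS2, the haem synthesis enzyme of red cells, had 1.73 CPM at day 2 and 0.192 CPM at day 3, from 9 reads and 1 read. PTPRC (CD45), the common white cell antigen, had 1.73 and 1.15 CPM, and GATA1, the red cell and platelet factor, had no read on either day. HBE1, PF4 and VAV1 had none either. Among 12 blood lineage factors 5 passed, and GFI1, a repressor of early blood and haemogenic endothelium, was the one at least 2-fold higher, from 0.577 CPM (3 reads) to 10.2 CPM.

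Part of the FGF and ERK response genes were higher on the day bFGF was added. Of 27 ERK feedback and immediate early genes 25 passed, 9 were at least 2-fold higher, none at least 2-fold lower, and the median log2 ratio was 0.54. EGR1, a zinc-finger factor induced within minutes of ERK activity, had 3.08 CPM at day 2 and 30.6 CPM at day 3, or 9.93-fold higher (5.93 to 17.8). FOS, its companion early gene, had 1.73 and 12.9 CPM. SPRY1, a feedback inhibitor of receptor tyrosine kinases, had 18.1 and 83 CPM, 4.59-fold higher (3.67 to 5.8). DUSP6, the phosphatase that inactivates ERK, had 149 and 397 CPM, 2.67-fold higher (2.46 to 2.91). CCND1 (cyclin D1), which drives cells through G1, had 275 and 556 CPM, 2.02-fold higher (1.9 to 2.15). Other members of the list were under 2-fold and lower in level: the early gene IER3 was at 169 and 102 CPM, and DUSP5, a nuclear ERK phosphatase, at 92.5 and 61.3 CPM. The feedback inhibitors SPRY4, at 419 and 398 CPM, and IL17RD, at 265 and 255 CPM, had counting intervals that included no difference.

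The EGR1 window is shown because it holds one form of the serum response (CArG) sequence, next to the CAGGAAG sequence on the opposite strand; they begin 105 and 94 bases before the start site. Its position is chr5:138465229-138465478, plus strand, and the longer run in capitals is the CArG sequence and the shorter one the ETS sequence. That exact form was found in 0.03132% of all windows; other forms of CArG, also present in this window, were not searched, so the share is not that of CArG sequences in general.
EGR1: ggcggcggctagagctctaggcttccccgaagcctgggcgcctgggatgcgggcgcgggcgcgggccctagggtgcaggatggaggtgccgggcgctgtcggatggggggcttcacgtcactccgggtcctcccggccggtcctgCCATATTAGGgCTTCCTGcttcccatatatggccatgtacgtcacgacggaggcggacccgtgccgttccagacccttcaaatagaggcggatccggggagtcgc
Neither sequence says what acted there.

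Most FGF genes themselves were under 2-fold in either direction. Of 16 FGF ligands, receptors and binding proteins that passed, of 19 listed, FGF19, an endocrine ligand, was the one at least 2-fold higher, beside 5.9% over all genes, from 3.46 to 20.4 CPM, 5.88-fold (3.55 to 10.3). FGF8, the streak ligand, had 8.47 CPM at day 2 and 0.384 CPM (2 reads) at day 3, 22-fold lower (5.75 to 188). FGFBP3, an FGF carrier protein, was at 57.3 and 16.3 CPM, 3.51-fold lower (2.75 to 4.52). The median of the list was 0.06. In the PDGF and KIT list PDGFA, a growth factor, was at 4.23 and 16.5 CPM, 3.9-fold higher (2.42 to 6.55), the one member of 9 passing that reached 2-fold.

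The NODAL pathway held the gene with the largest difference in the other direction. NODAL and activin signal through SMAD2 and SMAD3, NODAL with the coreceptor CRIPTO, and induce their own secreted inhibitors. Of 22 ligands, coreceptors and antagonists 20 passed, 8 were at least 2-fold lower and 2 at least 2-fold higher, with a median log2 ratio of -0.18. CER1 (Cerberus), a secreted antagonist of NODAL, BMP and WNT, had 2243 CPM at day 2 and 26.1 CPM at day 3, or 85.8-fold lower (72.5 to 102). It had been at 4.96 CPM in the undifferentiated cells. No gene of at least 10 CPM had a log2 ratio of CPM + 1 larger in size.

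The ligand and the other feedback inhibitors were lower too. NODAL had 15 CPM at day 2 and 1.35 CPM at day 3, or 11.2-fold lower (5.17 to 28.7). LEFTY1, a NODAL antagonist, was at 35.5 and 1.64 CPM, and with LEFTY2, a near copy whose reads may be shared, the sum was 89.5 and 14.8 CPM. CRIPTO (TDGF1), the coreceptor, was at 732 and 255 CPM, 2.88-fold lower (2.7 to 3.06), and with its copy CRIPTO3 at 747 and 258 CPM. INHBE, an inhibin beta subunit, was at 25.3 and 4.81 CPM, 5.27-fold lower (3.43 to 8.46).

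Of the receptors, none reached 2-fold, and another coreceptor was higher. ACVR2B, a type II activin receptor named after its values were seen, had 204 and 215 CPM. CFC1 (Cryptic), a relative of CRIPTO, is listed at 1.27 and 10.2 CPM, and with its near-identical copy CFC1B the sum was 1.54 and 24.6 CPM, 16-fold higher (7.87 to 37.8). INHBA, an activin subunit, was the other member at least 2-fold higher, with no read and then 1.35 CPM.

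Upstream windows are shown for CER1 and for MIXL1, a primitive streak gene, as examples with a match to a FOXH1 motif. FOXH1 is the SMAD2 partner at NODAL targets. The motifs are AATCCACA and the variant AATACACA, in 0.7091% and 0.6664% of all windows. The streak genes MESP2 and SP5 also held AATCCACA and are not printed. Matches to these motifs were also present in ACTC1, PRRX1, CDKN2C and CXCR4, which were higher at day 3. CER1 is at chr9:14722734-14722983, minus strand, with the variant beginning 154 bases before the start site. MIXL1 is at chr1:226223414-226223663, plus strand, with the first motif on the opposite strand beginning 249 bases before it.
CER1: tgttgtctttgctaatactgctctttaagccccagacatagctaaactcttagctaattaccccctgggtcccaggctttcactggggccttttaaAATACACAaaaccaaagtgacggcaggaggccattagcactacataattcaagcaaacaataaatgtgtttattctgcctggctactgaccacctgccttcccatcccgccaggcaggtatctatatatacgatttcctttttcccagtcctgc
MIXL1: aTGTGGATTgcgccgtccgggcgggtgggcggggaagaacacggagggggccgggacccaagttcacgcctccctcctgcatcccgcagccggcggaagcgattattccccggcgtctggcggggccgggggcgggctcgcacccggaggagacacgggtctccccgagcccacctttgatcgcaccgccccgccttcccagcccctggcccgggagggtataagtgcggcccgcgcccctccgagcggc
Among 16 windows of 15 primitive streak genes AATCCACA was in 3 and AATACACA in 1, while CAGGAAG was in none.

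Part of the primitive streak genes were lower. Of 22 listed, 20 passed, 8 were at least 2-fold lower, 1 at least 2-fold higher, and the median log2 ratio was -0.75. The lower members include CER1 and NODAL, which are on the NODAL list as well. GSC (goosecoid), the homeobox factor of the anterior streak, had 22.7 CPM at day 2 and 0.577 CPM (3 reads) at day 3, 39.4-fold lower (13.1 to 194). MIXL1, a homeobox factor of mesendoderm, had 56.4 and 5.77 CPM, 9.78-fold lower (6.7 to 14.8). EOMES, the T-box factor of the streak and definitive endoderm, had 367 and 167 CPM, 2.2-fold lower (2.03 to 2.39). MESP1, a factor of nascent cardiac mesoderm named after its values were seen, was at 9.04 and 0.961 CPM, 9.41-fold lower (3.76 to 30.3).

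Other streak genes differed less or in the other direction. TBXT (brachyury), the general streak and mesoderm marker, had 35.8 and 24 CPM, 1.49-fold lower (1.18 to 1.88), and did not reach 2-fold. TBX6, a T-box factor of presomitic mesoderm, had 5.77 and 5.38 CPM, with an interval that held a ratio of 1. LHX1, named after its values were seen, was at 154 and 156 CPM. CDX2, a posterior homeobox factor that was likewise singled out afterwards, was the one streak gene at least 2-fold higher, at 4.81 and 23.1 CPM, 4.79-fold (3.1 to 7.7).

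**Figure D3:**
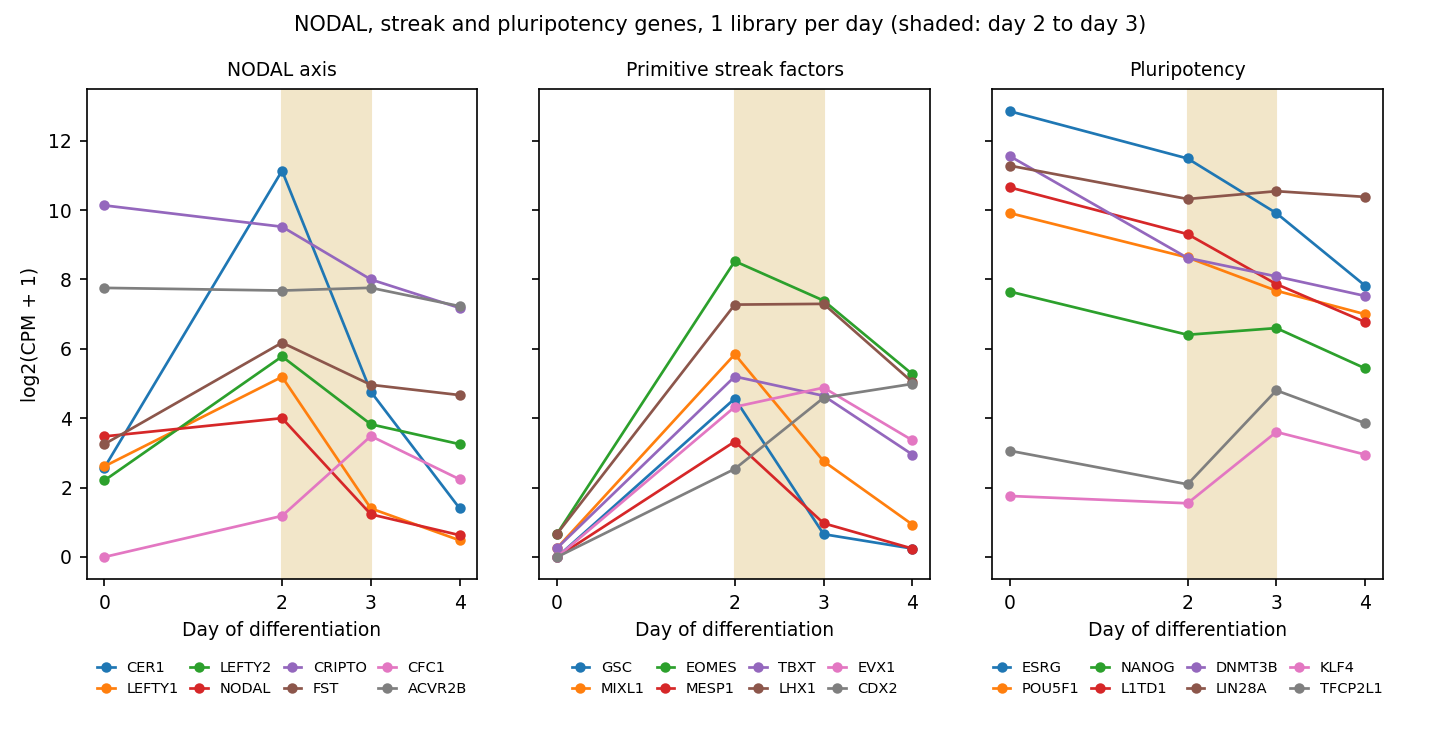
Levels of NODAL pathway, primitive streak and pluripotency genes at days 0, 2, 3 and 4, as log2(CPM + 1) from 1 library per day, with the interval from day 2 to day 3 shaded. CER1 was highest at day 2 and 85.8-fold lower at day 3; CDX2, KLF4 and TFCP2L1 were higher at day 3 than at day 2, and LHX1 stood level.

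Pluripotency genes differed in both directions. Of 21 passing members of 22, 3 were at least 2-fold lower and 4 at least 2-fold higher, with a median log2 ratio of -0.29. POU5F1 (OCT4), the core factor, had 396 CPM at day 2 and 203 CPM at day 3, or 1.95-fold lower (1.81 to 2.1). NANOG had 83.7 and 95.8 CPM, and SOX2, at 292 CPM in undifferentiated cells, had 0.77 and 0.769 CPM, under the minimum. LIN28A, an RNA-binding protein, stood at 1275 and 1491 CPM. The members at least 2-fold lower were CRIPTO, L1TD1 at 632 and 232 CPM, and ESRG, a long RNA from an endogenous retrovirus, at 2866 and 961 CPM, 2.98-fold lower (2.89 to 3.08). Reads of ESRG may be shared with related retroviral copies.

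The 4 higher members include genes that are also active outside pluripotent cells. TFCP2L1, a factor of naive pluripotency and of epithelia, had 3.27 and 26.9 CPM, 8.23-fold higher (4.96 to 14.5). KLF4, a naive pluripotency factor that is also an early response gene in endothelium, had 1.92 and 11.1 CPM, 5.79-fold higher (2.94 to 12.7). PRDM14 was at 2.13 and 5.9 CPM, and UTF1 had no read and then 1.73 CPM.

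Genes of the WNT pathway, which patterns the streak and its mesoderm, also differed. Among 27 passing WNT ligands, receptors and R-spondins, RSPO2, RSPO3, WNT11 and WNT2 were at least 2-fold higher, and WNT4, WNT8A and WNT2B at least 2-fold lower, with a median of -0.19. RSPO2, a secreted amplifier of WNT signals, had 1.73 CPM at day 2 and 60 CPM at day 3, or 34.6-fold higher (18 to 76.4). RSPO3, the related vascular R-spondin, had 7.31 and 28.1 CPM, 3.84-fold higher (2.67 to 5.64). WNT8A, a streak ligand, had 10 reads at day 2 and 1 at day 3. Among 20 antagonists and targets 6 were at least 2-fold higher, led by DKK2, with no read and then 17.1 CPM. The DKK2 level at day 3 was 29.6 times the floor, and the counting interval of its fold began at 23.6. DKK4 was the one at least 2-fold lower, at 3.46 and 0.384 CPM.

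Part of the ligands and receptors of the BMP and TGF-beta family were higher as well. Of 21 passing BMP ligands, receptors and antagonists 7 were at least 2-fold higher, with a median of 0.26. GDF6, a BMP-type ligand, was at 2.31 and 24.8 CPM, 10.7-fold higher (5.94 to 21.3), and BMP5 at 1.15 and 11.3 CPM, 9.82-fold higher (4.25 to 27.8). ACVRL1 (ALK1), the endothelial BMP9 receptor, had 5.49 and 26.1 CPM, 4.76-fold higher (3.12 to 7.26). The BMP target genes were near the background, with a median of 0.04 over 14 passing members: MSX1 was at least 2-fold higher at 41.9 and 129 CPM, while ID1 was at 329 and 200 CPM. TGFB2, a TGF-beta ligand counted here among YAP targets, had 5.58 and 99.8 CPM, 17.9-fold higher (12.3 to 27).

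IGF and NOTCH genes followed. Of 12 passing IGF ligands, receptors and binding proteins 6 were at least 2-fold higher, with a median of 1.03. IGF2, a fetal growth factor, had 22.9 CPM at day 2 and 270 CPM at day 3, or 11.8-fold higher (9.78 to 14.3), and IGF1 had 13.8 and 79.2 CPM, 5.73-fold higher (4.44 to 7.45). The receptors IGF1R, INSR and IGF2R were all under 2-fold. In the NOTCH list DLL1, a ligand, at 0.577 CPM (3 reads) and 5 CPM, HEY1, a target factor of endothelium, at 5 and 16.5 CPM, and LFNG, which modifies the receptors, at 3.66 and 11.3 CPM, were the 3 of 15 passing members at least 2-fold higher. JAG1 was at 72.7 and 146 CPM.

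HOX genes were higher at day 3. These homeobox genes, which mark position along the body axis, lie in clusters and are switched on in order from the 3′ (anterior) to the 5′ (posterior) end. Of 27 HOX genes of groups 5 to 13, 13 passed and 11 were at least 2-fold higher, none lower; of 12 genes of groups 1 to 4, 4 passed and 3 (HOXB2, HOXB3 and HOXB4) were higher. The medians were 1.14 and 1.46, and without the minimum, over members with a count in either library, 0.82 and 0.57. HOXB8 had 6.16 CPM at day 2 and 39.6 CPM at day 3, or 6.43-fold higher (4.42 to 9.65). HOXB5 had 5 and 25.4 CPM, HOXB7 3.07 and 14.1 CPM, and HOXB9 26 and 83 CPM.

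At the ends of the HOXB cluster, HOXB1 had no read on either day and HOXB13 had 1.35 CPM on both. HOXB2 stood at 17.9 and 56.1 CPM and HOXB3 at 8.66 and 35.4 CPM. MEIS2 and MEIS1, homeobox cofactors of HOX proteins, were at 1.73 and 26.1 CPM, 15.1-fold higher (7.72 to 33.7), and at 3.46 and 17.1 CPM, 4.94-fold higher (2.95 to 8.71).

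**Figure D4:**
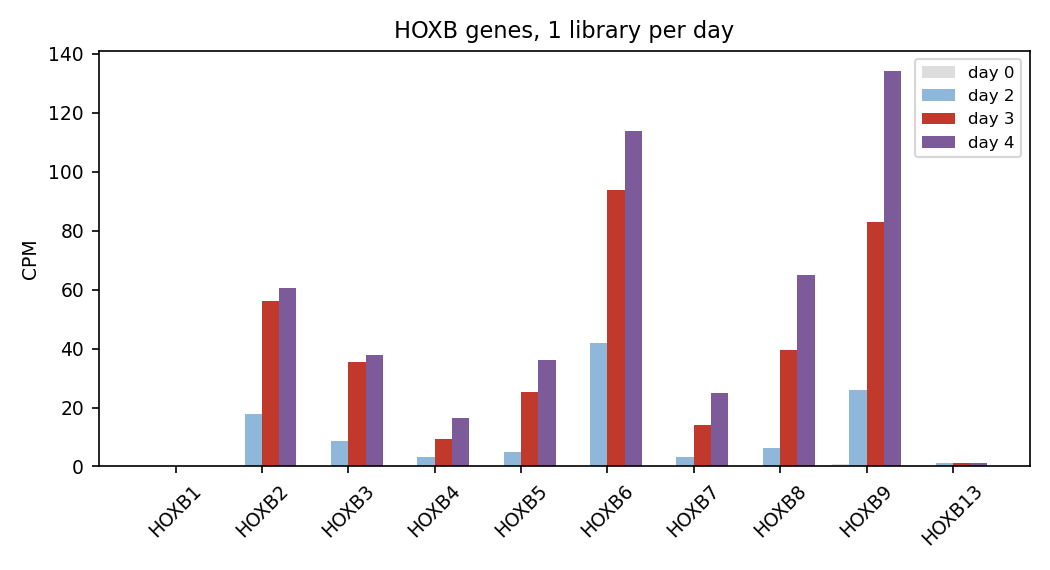
CPM of the listed HOXB genes at days 0, 2, 3 and 4, as bars that start at 0, from 1 library per day. From HOXB2 to HOXB9 every gene was higher at day 3 than at day 2, by 2.23-fold for HOXB6 to 6.43-fold for HOXB8, while HOXB1 and HOXB13 were near 0.

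Factors of lateral and cardiac mesoderm were partly higher. Of 23 lateral plate and cardiac factors 20 passed, 8 were at least 2-fold higher, none at least 2-fold lower, and the median was 0.71. PRRX1, a limb and lateral mesoderm factor, had 1 read (0.192 CPM) and then 5.96 CPM. HAND1, abundant in extraembryonic and lateral mesoderm, had 284 and 440 CPM, 1.55-fold higher (1.45 to 1.66). SNAI2 (SLUG), a factor of epithelial to mesenchymal transition, had 39.1 and 106 CPM, 2.7-fold higher (2.3 to 3.19).

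Contractile genes were mixed, with 4 of 20 passing members at least 2-fold higher and 3 lower. ACTC1, the cardiac actin, had 596 and 1522 CPM, 2.56-fold higher (2.45 to 2.66), whereas ACTA1, the skeletal actin, had 63.8 and 8.55 CPM, 7.46-fold lower (5.5 to 10.6). Actin genes share much coding sequence, so their split is less certain. ACTA2, TNNC1 and MYL4 were the other higher members, and TAGLN, at 652 and 305 CPM, and MYL7, at 50 and 23.1 CPM, the other lower ones.

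Matrix genes included the most abundant transcript of the day 3 library. FN1 (fibronectin), the glycoprotein on which mesoderm migrates, had 3543 CPM at day 2 and 11680 CPM at day 3, or 3.3-fold higher (3.24 to 3.35), and made up 1.17% of all counts at day 3. Of 25 collagens, all of which passed, 9 were at least 2-fold higher and none at least 2-fold lower, with a median of 0.75. COL2A1, the cartilage and notochord collagen, had 3.46 and 46.5 CPM, 13.4-fold higher (8.32 to 23). COL3A1, a vessel wall collagen, had 7.31 and 66.5 CPM, 9.1-fold higher (6.5 to 13.1). COL4A2, of the vascular basement membrane, had 265 and 754 CPM, 2.85-fold higher (2.68 to 3.03).

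Basement membrane genes and their receptors also differed. NID2 (nidogen 2), which links laminin to collagen IV, had 6.73 and 125 CPM, 18.5-fold higher (13.2 to 26.8). LAMA4, the endothelial laminin chain, had 0.77 and 6.73 CPM, FBLN2 64.6 and 258 CPM, and FREM2 96.9 and 564 CPM. They were the 4 of 23 members at least 2-fold higher, and FREM1 was the one lower, at 52.1 and 19.8 CPM. Among integrins, the receptors for matrix, ITGA6 at 81.4 and 303 CPM and ITGA8 at 0.77 and 7.11 CPM were at least 2-fold higher, and ITGB5 at 404 and 196 CPM and ITGB8 at 71.8 and 34 CPM at least 2-fold lower.

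Proteases and adhesion proteins differed too. Of 26 matrix proteases and inhibitors 6 were at least 2-fold higher and 3 (ADAMTS5, ADAMTS20 and MMP16) lower. PLAT, the tissue plasminogen activator, had 5.96 and 50.4 CPM, 8.44-fold higher (5.81 to 12.7), and ADAMTS9 38.3 and 217 CPM, 5.68-fold higher (4.88 to 6.63). CDH11, a mesenchymal cadherin, had 134 and 562 CPM, 4.19-fold higher (3.86 to 4.56), and VIM (vimentin) 1116 and 2448 CPM, 2.19-fold higher (2.13 to 2.26). CDH1 (E-cadherin), the epithelial cadherin, had 294 and 165 CPM, 1.79-fold lower (1.64 to 1.95). None of 25 passing epithelial genes reached 2-fold in either direction, beside shares of 5.9% higher and 3.31% lower over all genes. A list of that size would hold few such genes.

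Outside the lists, the largest differences among genes of at least 10 CPM named further genes. TLR4, a receptor for bacterial lipopolysaccharide, had 0.77 and 48.4 CPM, 62.9-fold higher (24.3 to 233). EMP1, an epithelial membrane protein, had 0.77 and 39.2 CPM, 50.9-fold higher (19.6 to 189), and SAMSN1, an adaptor of lymphoid cells, had no read and then 16.9 CPM. CCDC80, a matrix protein, was at 9.62 and 170 CPM, and GASK1B at 2.5 and 54.6 CPM. On the lower side stood POU2AF1, a B-cell coactivator, at 97.8 and 4.08 CPM, 24-fold lower (15.7 to 39.5), and the neuropeptide genes GRP, at 77.5 and 3.27 CPM, and GAL, at 287 and 32.9 CPM, 8.73-fold lower (7.45 to 10.3). ATP12A, a proton pump, was at 179 and 21.1 CPM, MFAP4 at 139 and 13.3 CPM, SYT4 at 77.7 and 5.77 CPM, CNKSR3 at 69.7 and 3.84 CPM, CALB1 at 31.2 and 2.31 CPM, and GABBR2 at 15.6 and 0.769 CPM.

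Some of the extreme entries are gene models that overlap others. NME1-NME2 is listed at no read and then 18.9 CPM, yet with NME1 and NME2 the sum was 282 and 221 CPM. ARPIN-AP3S2 and PHOSPHO2-KLHL23 were also listed at 0 and then at 17.9 and 14.9 CPM, with sums over their loci of 66.6 and 65.9 CPM and of 100.3 and 72.7 CPM. RAB4B-EGLN2 went the other way, at 15.1 and 0.759 CPM, with a sum of 64.8 and 70.2 CPM. Gene ID 414216, which matched no name, was at 32.4 and 0.102 CPM.

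Markers of other lineages were measured beside the vessel and blood genes. Of 14 endoderm regulators, FOXA1, HNF4A, HHEX and CXCR4 were among those at least 2-fold higher and GSC and EOMES lower, with a median of 0.16. HNF4A, a liver and gut factor, had 2.12 and 13.5 CPM, 6.36-fold higher (3.34 to 13.3). Of 21 plasma protein genes of liver and yolk sac 10 passed, with 6 at least 2-fold higher and a median of 1.42, or 0.59 without the minimum. APOA1, an apolipoprotein, had 1.54 and 15.8 CPM, 10.2-fold higher (4.96 to 24.5), while ALB, TTR and SERPINA1 had no read on either day.

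Trophoblast and amnion genes had 14 of 20 members passing, 6 at least 2-fold higher, and a median of 0.69, with GABRP at 2.5 and 13.8 CPM. Of 19 neuroectoderm genes 8 passed, with a median of -0.76, or -0.29 without the minimum. ZIC2, a neural plate factor, was the one at least 2-fold lower, at 129 and 41.7 CPM, 3.09-fold (2.65 to 3.62), and OTX2, of the anterior epiblast and brain, was at 85.4 and 42.3 CPM. Summed over list members, plasma protein genes went from 241 to 379 CPM, most of it APOE at 204 and 289 CPM. Trophoblast and amnion genes went from 1049 to 1224 CPM, most of it TPM1, at 351 and 428 CPM, and BAMBI, both of which are on another list as well. What part such cells had in the differences above was not tested.

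Guidance and segment genes were divided. Of 36 ephrins, semaphorins and related genes 8 were at least 2-fold higher and 4 (SEMA6D, PLXNA2, NTN1 and SEMA5A) lower, with a median of 0.07. EFNB2, the ephrin of arterial endothelium, had 76.6 CPM and then 247 CPM, 3.22-fold higher (2.88 to 3.61). ROBO2, a SLIT receptor, was at 15.6 and 61.3 CPM, and SEMA6D at 122 and 36.2 CPM, 3.37-fold lower (2.86 to 3.99). Of 25 passing SOX and forkhead factors 7 were higher, with SOX9, a factor of cartilage and other progenitors, at 23.5 and 93.4 CPM, 3.98-fold (3.26 to 4.89). Among 6 passing paraxial and intermediate mesoderm factors PAX2, of the kidney field, at 0.962 and 8.46 CPM, and PAX3, at 0.385 and 2.11 CPM, were the higher ones. Both passed through the day 3 library alone, so they had to be higher there. The median of that list was 0.45, or 0.02 without the minimum.

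Genes of growth and metabolism differed little, with 1 exception. None of 22 S phase genes and none of 22 mitosis genes reached 2-fold, and all 22 mitosis genes had a log2 ratio below 0, between -0.56 and -0.04, with a median of -0.32. The 35 ribosomal protein genes had a median of -0.20, and the 24 cholesterol genes one of 0.02, none of them 2-fold. Over all genes 5.9% were higher and 3.31% lower, so lists of these sizes would hold few 2-fold genes. Genes of the amino acid stress response and serine synthesis were lower: of 20, 4 were at least 2-fold lower, none higher, with a median of -0.63. ASNS (asparagine synthetase), a target of the stress factor ATF4, had 311 and 106 CPM, 2.94-fold lower (2.67 to 3.24). PSAT1, a serine synthesis enzyme, had 455 and 195 CPM, SLC7A11, the cystine carrier, 363 and 159 CPM, and CHAC1 23.7 and 9.23 CPM.

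Single genes of other pathways reached 2-fold. In glycolysis and hypoxia, SLC2A1 (GLUT1), the glucose carrier, was at 477 and 233 CPM and EGLN3, an oxygen sensor, at 150 and 65.7 CPM, while PFKP, at 107 and 219 CPM, and NDRG1, at 12.9 and 27.5 CPM, were higher. GDF15, a stress cytokine, was at 48.3 and 15 CPM and PMAIP1 (NOXA), a cell death gene, at 97 and 42.9 CPM. CRABP1, a retinoic acid binding protein, was at 13.1 and 1.73 CPM, and STRA6, the retinol transporter, at 13.3 and 56.9 CPM. Of 17 G1 cyclins and inhibitors CDKN1C, CDKN2C and CCND1 were higher, with CDKN1C, an imprinted inhibitor, at 6.93 and 19.8 CPM. No passing gene reached 2-fold in the MYC network (11 passing), unfolded protein (17), oxidative phosphorylation (29), DNA methylation (11) and oncofetal (8) lists. Over all genes the shares were 5.9% higher and 3.31% lower, so lists of this size would hold few such genes. CXCL12, a chemokine, was at 21.7 and 6.34 CPM, and its receptor CXCR4 at 38.5 and 88.8 CPM.

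**Figure D5:**
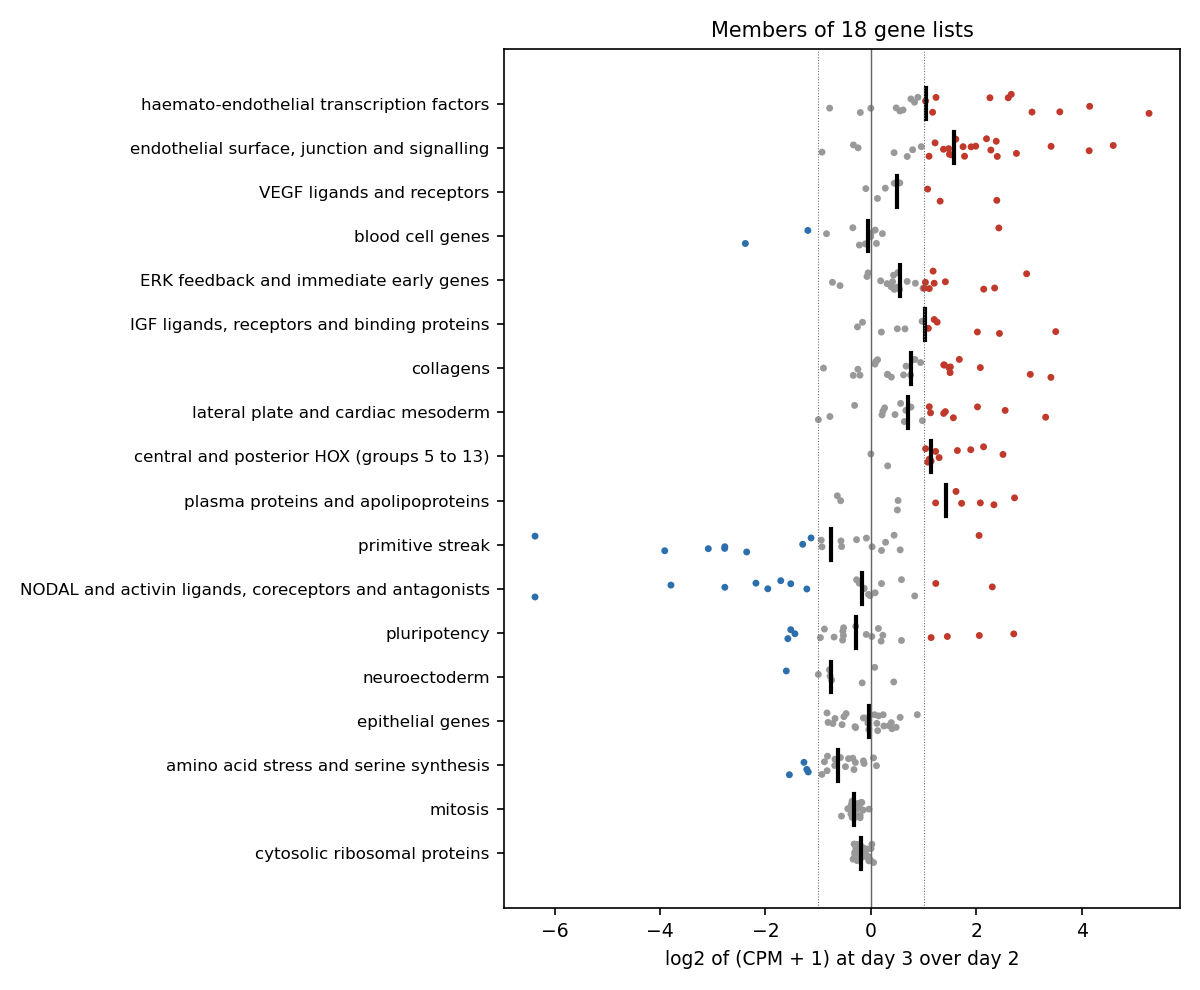
Log2 ratios of CPM + 1 (day 3 over day 2) for the members of 18 gene lists that passed the minimum, 1 point per gene, with the median of each list as a black bar and dotted lines at the 2-fold limits. The endothelial and vessel and blood factor lists lie to the right (medians 1.57 and 1.04), the primitive streak list to the left (median -0.75), and the mitosis and ribosomal lists close to 0.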

How the data were processed

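RNA of H1 cells was extracted with Trizol, and libraries were made with the Illumina TruSeq RNA kit from 2 ug of total RNA, per the labels' protocols. The submitters' processing notes name BWA, Bowtie, RSEM and the hg19 build. The design text also names TopHat and Cufflinks. Versions, roles and the strand setting were not given in the sources used here, so reads of overlapping or antisense genes may not be separated.

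The deposited files list, per the file headers, an expected count per gene (an estimated count as RSEM gives, unrounded), an FPKM value and a transcript length. CPM was computed by scaling each expected count to its column sum. Day 3 was compared with day 2 as log2 of (CPM + 1), over genes with at least 1 CPM in either, with no test. The 95% intervals of fold values are exact conditional binomial intervals on rounded counts, and PCR duplicates cannot be told from separate molecules. Of 19390 gene IDs 19273 matched a symbol in the RefSeq table (GRCh38.p14). The scripts were tested on simulated data.

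Named genes were the 15 largest ratios in each direction among genes of at least 10 CPM, up to 5 per list of 54 lists, all VEGF genes and 18 fixed markers. The members and lists were chosen with earlier results of these data known. SOX7, ETS1, IER3, DUSP5, SPRY4, IL17RD, APOE, TPM1, BAMBI, APLNR, TEK, TIE1, LEFTY2, FST, ACVR2B, MESP1, LHX1, EVX1, CDX2, L1TD1, INHBA, PRDM14, WNT2, WNT2B, HOXB6, TAGLN, MYL7, ADAMTS20, MMP16, PLXNA2, NTN1 and SEMA5A were named in text or plots after their values were seen. Alternatives were other pseudocounts (0.1 and 5 CPM), no minimum or one of 5 CPM, TMM factors (edgeR 4.0.16), median-of-ratios factors, FPKM, rounded counts, protein-coding genes and, added after seeing the data, omission of read-through models. Some items are not reported here.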

Additional observations from a re-analysis of the deposited data

How the results depend on the processing

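No named gene of at least 2-fold on this scale and no list median of at least 0.5 in size changed sign under an alternative; values near 0 did. With median-of-ratios factors the median over all genes was -0.03 in place of 0.02, and IKZF1 was at -0.01 in place of 0.04. Scaling choices left all counts within 1.5 times of those reported. The pseudocount mattered most. With 0.1 CPM, 836 genes were lower by 2-fold or more, 485 higher by 4-fold or more and 225 lower by that size, and the medians were 1.48 for the vessel and blood factors and 1.97 for the endothelial list. With 5 CPM, 380 were higher and 184 lower by 2-fold, 56 higher and 20 lower by 4-fold, and the medians were 0.722, 0.998 and, for the primitive streak, -0.445. A minimum of 5 CPM left 333 genes at least 2-fold lower. A pseudocount by construction weighs most on genes of few reads. TMM factors gave 890 higher and 537 lower, median-of-ratios factors 859 and 577, and FPKM 642 and 417. Of the 2-fold genes, 64.1% were higher, between 59.8% and 67.4% over all settings. No paired analysis was possible because there is 1 library per day, which also leaves culture-to-culture spread unmeasured.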

Other observations

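In RSEM output the transcript length of a gene is the abundance-weighted mean over its transcripts, so it moves when the estimated mix of transcripts does. Of 9867 genes with at least 50 counts on both days, 4 differed at least 1.5 times in this length between day 2 and day 3. DMD, the dystrophin gene, which has several promoters, was listed at 6882 bases at day 2 and 12265 bases at day 3, from 498 and 570 counts, and at 5139 and 11885 bases at days 0 and 4. PCDHGB4 was at 2412 and 4578 bases, TTC28-AS1 at 1835 and 2942 bases, and DEF8 at 3082 and 2051 bases. FLT1, whose short transcript encodes a soluble receptor, was at 5141 and 5011 bases.

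CST1, a secreted cysteine protease inhibitor, had 46 CPM at day 2 and 575 CPM at day 3. With its relatives CST2 and CST4, which share sequence with it, the sum was 47.5 and 605 CPM, 12.7-fold higher (11.2 to 14.6, counting error only), and 1035 CPM at day 4. CST1 was singled out after its values were seen. HPRT1, often used as a reference gene, was at 29.6 and 13.5 CPM, 2.2-fold lower (1.65 to 2.96), the one of 16 reference genes at least 2-fold apart.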
